A study of Homo sapiens with 14 samples.

Results

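MPP8 knockdown was set directly against PPHLN1 knockdown, with no control sample in between, over every gene of the deposited table in which at least 1 of the 2 group means was above 0 on the table's log2 scale. That left 15944 genes of the 35805 rows. All cells were K562, a long-established leukaemia line of human origin, carrying dCas9-KRAB, a Cas9 that cannot cut, fused to a transcriptional repressor domain. The MPP8 group had 2 libraries, each from cells given a different guide against MPP8 (sg1-MPP8 and sg2-MPP8), and the PPHLN1 group had 2, with sg1-PPHLN1 and sg2-PPHLN1. The other groups served only to place these means: TASOR knockdown (2 guides), TASOR2 knockdown (3 guides in the labels, 2 libraries in the deposited mean), the control guide sgAAVS1 (3 libraries) and untransduced dCas9-KRAB cells (2 libraries). RNA was taken 7 days after transduction. Each group rests on 1 cell line and on transduced cultures whose remaining protein was not measured here.

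MPP8 (gene MPHOSPH8) and Periphilin (gene PPHLN1) are subunits that the HUSH and HUSH2 complexes share. HUSH is a silencing complex of the nucleus that keeps transposons, retrogenes and other intronless transcribed DNA quiet. MPP8 has a chromodomain that binds methylated lysine 9 of histone H3, and Periphilin is an RNA-binding protein that dimerizes and holds the complex on nascent transcripts. TASOR is the scaffold of HUSH and TASOR2 its counterpart in HUSH2. The comparison asks where loss of one shared subunit gives a transcriptome that loss of the other does not.

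The deposited numbers are means per group, in log2 of reads scaled to a common depth and not divided by gene length, so levels are compared between groups and never between genes. Single libraries are not listed, so no SD, n or p-value is given. The number after ± is the 95% counting error of a log2 difference (MPP8 minus PPHLN1), which leaves out all spread between libraries and guides. A gene was called when the difference was at least 1, the higher mean was above 0 and the counting interval left out 0. A gene with 1 of the 2 means below 0 passed through the other group alone, so part of its difference is built in. Reads over genes summed to 7565101 per library in MPP8 and 7875903 in PPHLN1, and 1 read was worth 0.169 units in MPP8 and 0.168 in PPHLN1. A mean of log2 values of 2 libraries also fixes the product of their 2 read counts. That product was a whole number, within 0.1, or had the form left by a library with no reads, in 100% of genes with products up to 30000. For products of 30000 to 200000 this held in 99.8% of MPP8 genes and 99.7% of PPHLN1 genes. A library with no reads enters as 0.9 reads and can be recognised. The real pair of counts is one of the factor pairs of the product. The most even pair is printed below, and it is the smallest spread the 2 libraries can have had. Which guide gave which count is not known, and these counts are not corrected for the depth of each library.

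Each targeted gene was lowest of the 6 groups in its own knockdown. MPHOSPH8 (chr13, 19633681 to 19673459, plus strand, hg38) stood at 4.70 in MPP8 and at 6.64 in PPHLN1, against 6.52 to 6.70 in the other groups, a difference of -1.95 ± 0.18. Its transcript level in MPP8 was 25.9% of that in PPHLN1, and the most even pair was 120 and 197 reads. PPHLN1 (chr12, 42238447 to 42459715, plus strand) stood at 6.66 in MPP8 and at 5.27 in PPHLN1, against 6.57 to 6.80 elsewhere, a difference of 1.39 ± 0.15. In PPHLN1 its level was 38.1% of that in MPP8, with a most even pair of 225 and 236 reads. The 2 knockdowns thus differed in transcript depth as well as in target, and the 2 cannot be told apart in what follows. The scaffold genes were closer: FAM208A (TASOR) stood at 7.34 in MPP8 and 7.39 in PPHLN1 (-0.04 ± 0.09). FAM208B (TASOR2) stood at 7.86 in MPP8 and 8.18 in PPHLN1 (-0.32 ± 0.07), neither of them called.

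A start region of PPHLN1 is shared with another gene. In RefSeq the minus-strand gene ZCRB1, which encodes an RNA-binding protein of the minor spliceosome, begins at position 42326094 and a PPHLN1 transcript begins on the plus strand at 42326167. The sequence between the 2 starts, and the 100 bases upstream of MPHOSPH8, are shown because CRISPR interference acts at promoters (RefSeq, GRCh38.p14, plus strand in both, CG pairs in capitals).
PPHLN1 and ZCRB1, chr12:42326095-42326166: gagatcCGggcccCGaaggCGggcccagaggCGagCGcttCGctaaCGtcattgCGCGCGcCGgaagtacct
MPHOSPH8, chr13:19633559-19633658: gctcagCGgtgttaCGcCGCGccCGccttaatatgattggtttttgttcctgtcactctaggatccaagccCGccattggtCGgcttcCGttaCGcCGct
The shared stretch of 72 bases holds 11 CG pairs at 69.4% GC, and the MPHOSPH8 stretch holds 10 CG pairs at 57% GC. Over 35097 RefSeq promoters 84.3% hold a CG on the 100 upstream bases, with a median of 5. RefSeq lists 2 start windows for PPHLN1, the file's span of the gene begins further upstream, and guide positions are not given in the sources at hand.

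ZCRB1 (chr12, 42312078 to 42326118) also had its lowest mean of the 6 in PPHLN1. It stood at 5.96 in MPP8 and 4.97 in PPHLN1, against 5.80 to 5.91 in the other 4 groups, with most even pairs of 344 and 395 reads in MPP8 and 158 and 222 in PPHLN1. The difference of 0.99 ± 0.18 fell just short of the size limit, and median centring brought it to 1.04. The genes overlap on opposite strands, the libraries were made with a directional kit, and the sources used here do not say whether strand was used in counting. Inside an intron of PPHLN1 and on its strand, the noncoding transcript RP11-351C21.2 (chr12, 42361267 to 42361703) stood at 2.09 in MPP8, with a most even pair of 22 and 29 reads. In PPHLN1 it had 1 read in 1 library and none in the other, and the other groups lay at 2.27 to 2.67, a difference of 4.74 ± 2.09. Genes beyond the PPHLN1 span showed no such difference. YAF2, on the minus strand, starts at 42238349, just before the file's PPHLN1 span begins at 42238447, and differed by -0.09 ± 0.19. GXYLT1 differed by 0.09 ± 0.15 and PRICKLE1, which overlaps the far end of the span, by -0.07 ± 0.41. Near MPHOSPH8, PSPC1 differed by -0.02 ± 0.12, ZMYM5 by 0.01 ± 0.21 and RP11-61K9.3 by -0.09 ± 0.37.

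Across the transcriptome the knockdowns were close. Of the 15944 genes, 97 were called higher in MPP8 (0.608%) and 142 lower (0.891%). Differences had a median of -0.05, and 92.0% of genes (14669) lay within 0.5 on the log2 scale. Most calls were made at low levels: among the 12283 genes with a higher mean above 3, only 16 were higher in MPP8 (0.130%) and 6 lower (0.0488%), and 98.7% lay within 0.5. The remaining 3661 genes, with a median counting error of 0.76, gave 81 higher and 136 lower. The balance of the directions depends on scaling, since quantile normalization gave 144 higher and 101 lower. By the same rule, with both directions counted together, MPP8 against TASOR gave 306 calls among 15987 genes (1.91%). PPHLN1 against TASOR gave 385 among 16056 (2.40%) and MPP8 against TASOR2 900 among 15933 (5.65%). The shares for MPP8 against PPHLN1 above are split by direction. These comparisons share groups with each other and with MPP8 against PPHLN1. The groups also differ in depth and in the gaps between libraries, whose part in these counts was not tested. Antisense and lincRNA genes were called more often than protein-coding ones, at lower levels. Called were 14 higher and 24 lower of 993 antisense genes, 12 and 31 of 885 lincRNA genes, and 58 and 82 of 12985 protein-coding genes. Of 790 other noncoding genes 12 were higher (1.52%, against 0.447% of protein-coding genes) and 4 lower (0.506%, against 0.631%). The median of the higher mean was 1.98 for antisense, 2.16 for lincRNA and 6.18 for protein-coding genes.

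**Figure D1:**
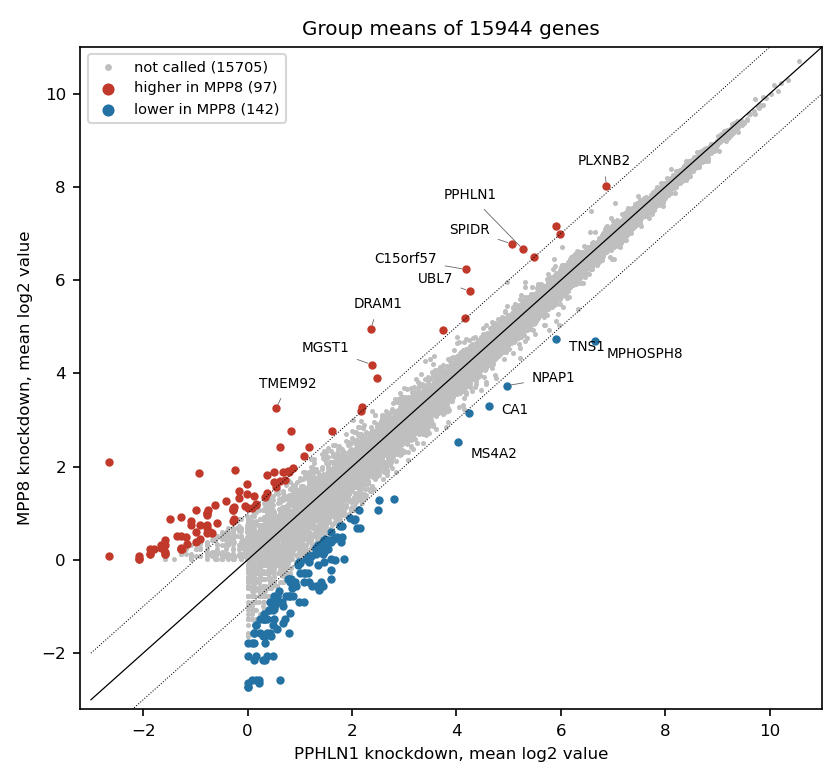
Mean log2 value in MPP8 knockdown (vertical axis) against PPHLN1 knockdown (horizontal axis) for 15944 genes; each point is a gene, the solid line marks equal means and the dotted lines a difference of 1. Called genes crowd at means below 3, and above that level 16 lie on the MPP8 side and 6 on the PPHLN1 side.

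The called genes were placed among all 6 means as a description only. Since they were chosen for a difference between these 2 groups, an end position is partly built in. Of the 97 genes higher in MPP8, the PPHLN1 mean was the lowest of the 6 in 66 and the MPP8 mean the highest in 60. In 20 of them PPHLN1 lay at least 1 below every one of the 4 other groups, and in 4 MPP8 lay at least 1 above them, while in 73 neither lay that far from the others. Of the 142 lower genes, PPHLN1 was the highest of the 6 in 107 and MPP8 the lowest in 72, with PPHLN1 at least 1 above the others in 12 MPP8 at least 1 below them in 7, and neither in 123. Among the 16 well-measured higher genes, PPHLN1 was the lowest of 6 in 14, and in 8 of these by at least 1, while MPP8 was the highest of 6 in 8 and by at least 1 in 0. Here well measured means a higher mean above 3. The targeted gene PPHLN1 is counted in the 97 and the 16, and in the numbers with PPHLN1 lowest or at least 1 below. MPHOSPH8 is counted in the 142 and in the numbers with MPP8 lowest or at least 1 below. The knockdowns themselves set the positions of these 2 genes.

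The well-measured genes higher in MPP8 encode proteins of several kinds. DRAM1, a lysosomal membrane protein linked to autophagy (chr12, 101877351 to 102012130), stood at 4.95 in MPP8 and 2.36 in PPHLN1, against 4.76 to 5.42 in the other groups. It was 6.02-fold higher in MPP8 (2.59 ± 0.39), and the MPP8 mean sat inside the range of the other 4. C15orf57 (CCDC32, a coiled-coil protein, chr15, 40528683 to 40565057) stood at 6.23 in MPP8 and 4.18 in PPHLN1, against 6.28 to 6.43 elsewhere (2.05 ± 0.21, 4.14-fold). MGST1, a microsomal glutathione transferase (chr12, 16347142 to 16609259), stood at 4.19 in MPP8 and 2.38 in PPHLN1, against 4.16 to 4.68 (1.80 ± 0.41). For each of these 3 genes only the PPHLN1 mean lay at least 1 away from the other groups. UBL7, a ubiquitin-like protein, stood at 5.76 in MPP8 and 4.25 in PPHLN1, against 5.65 to 5.90 (1.51 ± 0.22). NIPSNAP3B, a member of the NIPSNAP family, stood at 3.91 in MPP8 and 2.49 in PPHLN1, against 3.44 to 3.81 (1.42 ± 0.41). The MPP8 mean lay inside the range of the other groups for UBL7 and just above it for NIPSNAP3B.

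A kinase, a receptor, an antioxidant enzyme and a zinc finger gene were also among them. PRKCI, the atypical protein kinase C iota of cell polarity, stood at 7.16 in MPP8 and 5.90 in PPHLN1, against 7.08 to 7.36 (1.26 ± 0.13). PLXNB2, a plexin receptor for semaphorins, stood at 8.01 in MPP8 and 6.87 in PPHLN1, against 7.59 to 8.14 (1.14 ± 0.09), and had the smallest counting error of the set. SOD1, the cytosolic superoxide dismutase (chr21, from 31659622), stood at 6.49 in MPP8 and 5.48 in PPHLN1, against 6.17 to 6.37 (1.01 ± 0.15). The zinc finger gene ZNF784 stood at 4.94 in MPP8 and 3.74 in PPHLN1, against 4.30 to 4.86 (1.20 ± 0.27). In all of these the PPHLN1 mean was again the lowest of the 6.

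**Figure D2:**
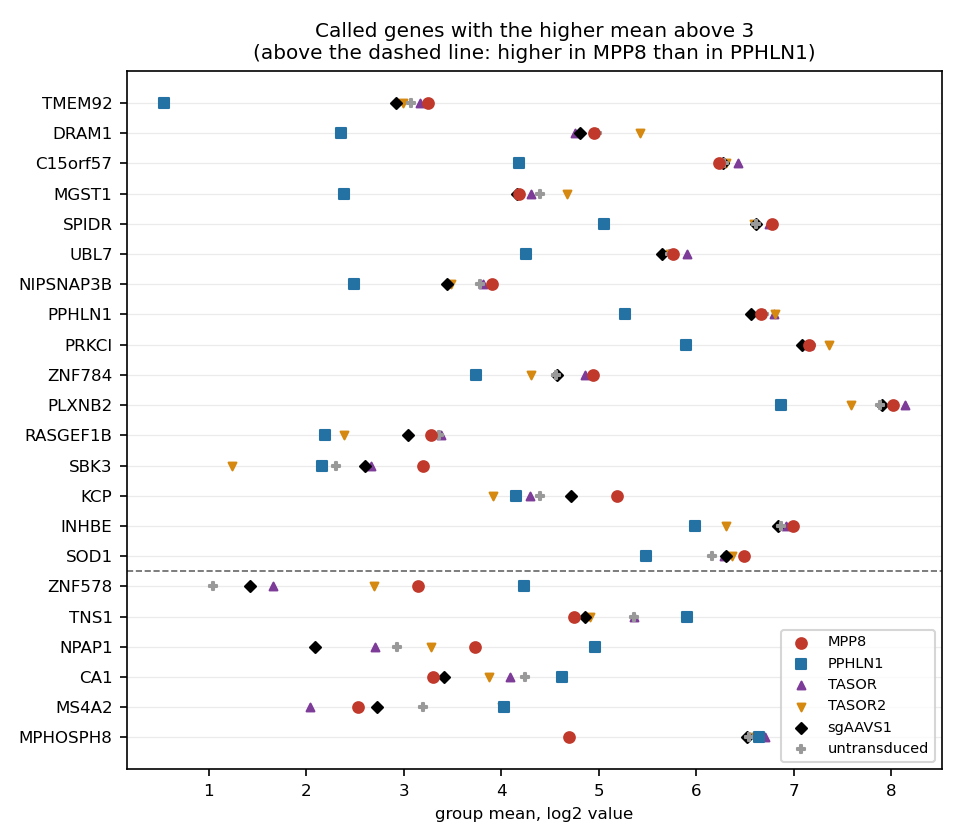
Group mean log2 value (horizontal axis) in each of the 6 groups for the 22 called genes with a higher mean above 3, one gene a row and one symbol a group. Above the dashed line PPHLN1 is the lowest of the 6 in 14 of 16 rows and MPP8 the highest in 8. The 14 include the targeted gene PPHLN1 itself. Below the line PPHLN1 is the highest in 5 of 6 rows, and MPHOSPH8 is low in MPP8 alone.

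For some genes the product does not settle whether both PPHLN1 libraries were low. In the most even pairs UBL7 had 294 and 353 reads in MPP8 and 112 and 115 in PPHLN1. C15orf57 had 402 and 492 in MPP8 and 92 and 127 in PPHLN1, and NIPSNAP3B 83 and 95 in MPP8 and 31 and 36 in PPHLN1. Less even pairs of the same products are possible too, such as 23 and 508 for C15orf57 and 12 and 93 for NIPSNAP3B in PPHLN1, whose higher count reaches the MPP8 counts. For other genes the product shows that the PPHLN1 libraries cannot have been even. TMEM92, a transmembrane protein gene (chr17, 50271406 to 50281485), had 52 and 61 reads in MPP8 in the most even pair. In PPHLN1 its product admits a single pair, no reads in 1 library and 84 in the other. Its means were 3.25 in MPP8 and 0.54 in PPHLN1, against 2.93 to 3.17 elsewhere. The difference of 2.70 ± 0.73 therefore depends on the 0.9 reads that stand for none, and its counting error does not cover the gap between the libraries.

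SPIDR, a scaffold protein of homologous recombination repair (chr8, 47260575 to 47736306), stood at 6.78 in MPP8 and 5.06 in PPHLN1, against 6.59 to 6.75 (1.72 ± 0.16). Its MPP8 libraries had a geometric mean of 649 reads. In PPHLN1 the pair was 61 and 647 reads, the only alternative being 1 and 39467, so 1 PPHLN1 library had at most 61 reads while the other had at least 647. FAM161A, a ciliary protein gene (chr2, 61824854 to 61854143), stood at 1.93 in MPP8 and -0.25 in PPHLN1, against 2.12 to 2.66. It had 19 and 27 reads in MPP8 in the most even pair and, as the only pair, none and 28 in PPHLN1 (2.18 ± 0.99). For SPIDR, TMEM92 and FAM161A, 1 PPHLN1 library lay near the MPP8 counts or above them and the other far below.

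The same held, with values looked up after the pairs were seen, for 4 genes outside the naming rule. INHBE, the inhibin beta E chain, stood at 7.0 in MPP8 and 5.99 in PPHLN1, with a geometric mean of 757 reads in MPP8 and a most even pair of 167 and 857 in PPHLN1 (1.01 ± 0.13). KCP, an extracellular modulator of BMP signalling, stood at 5.19 in MPP8 and 4.15 in PPHLN1, with most even pairs of 196 and 238 in MPP8 and 61 and 185 in PPHLN1 (1.03 ± 0.24). RASGEF1B, an exchange factor for Ras-family GTPases, had 57 and 58 reads in MPP8 and 14 and 53 in PPHLN1 (1.09 ± 0.47). SBK3, a kinase gene, differed by 1.04 ± 0.47 and had 13 and 55 reads in PPHLN1. For KCP and SBK3 the TASOR2 mean was lower still, at 3.91 and 1.24. DRAM1 had 164 and 204 reads in MPP8 and 17 and 55 in PPHLN1 in the most even pairs, and its PPHLN1 libraries differed at least by that much. A pair of 5 and 187 has the same product, so the higher PPHLN1 count may also have reached the MPP8 counts.

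Counted over all calls, PPHLN1 libraries must have differed by at least 1.5 on the log2 scale in 29 of the 96 higher genes with a known pair, and 15 of the 97 had no reads in at least 1 PPHLN1 library. Among the well-measured ones this was 7 of 15, against 0 of 10 for MPP8 libraries. Of the 142 lower genes, MPP8 libraries differed by that much in 22, with no reads in at least 1 MPP8 library in 15. In both sets the group with the gaps is the one with fewer reads. Over all genes with products of 400 to 200000 reads, gaps of that size occurred in 0 of 7342 genes in MPP8 and in 9 of 7245 in PPHLN1 (0.124%). Most called genes lay below that range, with a median higher mean of 1.12 in the higher and 0.95 in the lower ones. No background was counted at matched read levels, so these shares cannot be set against each other. Leaving out the genes with gaps of at least 1.5 in either group left 68 higher and 120 lower.

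**Figure D3:**
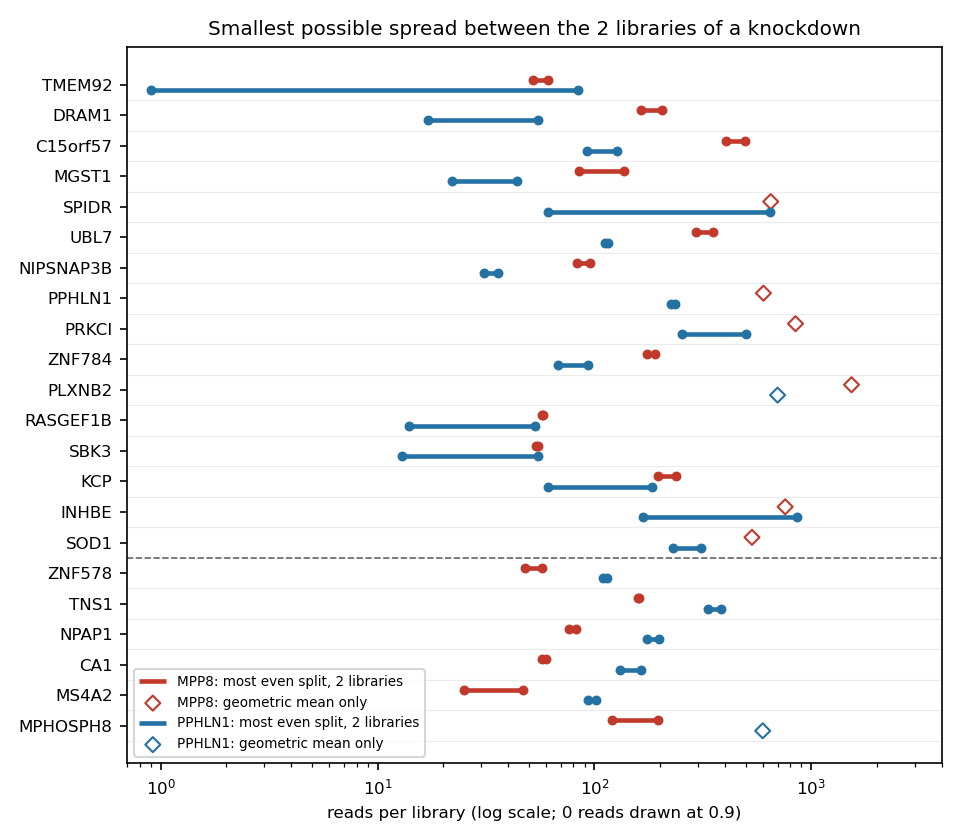
Reads per library (horizontal log axis) in the most even pair that the deposited mean allows, for the 22 well-measured called genes; bars join the 2 libraries of a knockdown, MPP8 above and PPHLN1 below in each row, and open diamonds are geometric means where no pair could be resolved. The PPHLN1 bars of TMEM92, SPIDR and INHBE are long and reach to or past the MPP8 values, while those of UBL7, NIPSNAP3B and PPHLN1 are short.

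Promoters of 3 genes lower in PPHLN1 are shown, DRAM1 and C15orf57 as the 2 well-measured genes with the largest drop that keeps both libraries below MPP8 in the most even pair, and FAM161A as a gene lost in 1 library (100 bases upstream, strand of the gene, CG in capitals, RefSeq GRCh38.p14).
DRAM1, chr12:101877480-101877579, plus strand: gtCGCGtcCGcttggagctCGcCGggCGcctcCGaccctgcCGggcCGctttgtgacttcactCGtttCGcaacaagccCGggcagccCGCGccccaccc
CCDC32, chr15:40565043-40565142, minus strand: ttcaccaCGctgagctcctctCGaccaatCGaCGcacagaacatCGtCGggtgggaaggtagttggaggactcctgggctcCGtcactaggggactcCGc
FAM161A, chr2:61854061-61854160, minus strand: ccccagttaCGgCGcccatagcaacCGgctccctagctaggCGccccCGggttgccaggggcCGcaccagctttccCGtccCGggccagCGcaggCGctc
They hold 14, 8 and 10 CG pairs at 73.0%, 61.0% and 74.0% GC. The middle 50% of all RefSeq promoters hold 1 to 11 on the same length. CG pairs are where DNA methylation occurs, and no methylation was measured here.

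At low levels the higher genes included a neighbour of SOD1. AP000253.1, a lincRNA on the opposite strand (chr21, 31653593 to 31659500) whose start lies beside the SOD1 start, stood at 1.86 in MPP8 and -0.92 in PPHLN1, against 0.01 to 1.56 elsewhere. Its most even pair was 21 and 22 reads in MPP8 and its only pair none and 11 in PPHLN1 (2.78 ± 1.21), while SOD1 itself had a most even pair of 230 and 309 in PPHLN1. FAM43A stood at 2.77 in MPP8 and 0.83 in PPHLN1, against 2.41 to 2.78 (1.95 ± 0.69), and PRKG2, a cGMP-dependent protein kinase, at 2.43 in MPP8 and 0.62 in PPHLN1, against 1.73 to 2.24 (1.81 ± 0.75). Both had PPHLN1 reads in the 2 libraries, with most even pairs of 8 and 14 for FAM43A and 7 and 12 for PRKG2. The further large differences rest on few PPHLN1 reads, given here as most even pairs. MYO10, an unconventional myosin, had 9 and 13 reads in MPP8 and none and 5 in PPHLN1 (2.36 ± 1.5). DNAH7, an axonemal dynein chain, had 9 and 14 in MPP8 and 2 and 3 in PPHLN1 (2.21 ± 1.41). NAALADL2 had 5 and 8 in MPP8 and 1 and 2 in PPHLN1 (2.17 ± 1.86). DSC3, a desmosomal cadherin, had 7 and 7 in MPP8 and none and 3 in PPHLN1, and SPG20-AS1 5 and 8 in MPP8 and none and 1 in PPHLN1. With a 99% interval DSC3, NAALADL2 and SPG20-AS1 were no longer called. AP000253.1, MYO10, DNAH7, NAALADL2, DSC3 and SPG20-AS1 passed the filter through MPP8 alone, so a lower PPHLN1 mean is partly built in.

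Beside MPHOSPH8, 5 well-measured genes were lower in MPP8, and in each of them PPHLN1 was the highest of the 6 groups. MS4A2, the beta chain of the high-affinity IgE receptor (chr11, 60088261 to 60098466), stood at 2.53 in MPP8 and 4.03 in PPHLN1, with TASOR at 2.04, TASOR2 at 4.01, sgAAVS1 at 2.73 and untransduced cells at 3.20 (-1.5 ± 0.40). The most even pairs were 25 and 47 reads in MPP8 and 93 and 102 in PPHLN1. Its other groups span almost the same range as the 2 knockdowns. CA1, a red cell carbonic anhydrase, stood at 3.30 in MPP8 and 4.62 in PPHLN1, against 3.41 to 4.24 (-1.32 ± 0.31), with 57 and 60 reads in MPP8 and 131 and 164 in PPHLN1. TNS1, a tensin of focal adhesions, stood at 4.75 in MPP8 and 5.91 in PPHLN1, against 4.86 to 5.37 (-1.16 ± 0.19), with 158 and 160 reads in MPP8 and 335 and 383 in PPHLN1. For CA1 and TNS1 MPP8 was at the same time the lowest of the 6.

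NPAP1 and ZNF578 differed from these in that both knockdowns lay above every other group. NPAP1, an intronless imprinted gene (chr15, 24675868 to 24683393), stood at 3.74 in MPP8 and 4.96 in PPHLN1, against 2.09 in sgAAVS1 and 2.70 to 3.28 in the other 3 groups. The difference was -1.23 ± 0.27, or 2.34-fold, with most even pairs of 76 and 82 reads in MPP8 and 174 and 199 in PPHLN1. ZNF578, a zinc finger gene of chr19 (52453576 to 52512154), stood at 3.14 in MPP8 and 4.23 in PPHLN1, against 1.05 in untransduced cells, 1.43 in sgAAVS1, 1.66 in TASOR and 2.70 in TASOR2. The difference was -1.09 ± 0.33, with 48 and 57 reads in MPP8 and 110 and 114 in PPHLN1. MPP8 thus held an intermediate level in both genes.

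Low-level genes on that side had few MPP8 reads. PSD2, an exchange factor for ARF GTPases, had 1 and 1 reads in MPP8 and a most even pair of 7 and 12 in PPHLN1 (-3.19 ± 2.11), with the other groups at -0.26 to 0.87. MPP8 alone departed there. SIRPB2, of the signal-regulatory protein family, stood at -0.41 in MPP8 and 1.59 in PPHLN1, against -1.80 to -1.17 (-2.0 ± 1.06), with most even pairs of 4 and 5 in MPP8 and 17 and 19 in PPHLN1. HTRA3, a secreted serine protease, stood at 0.02 in MPP8 and 1.84 in PPHLN1, against -0.21 to 0.61 (-1.82 ± 0.92). For SIRPB2 both knockdowns lay above the rest, and for HTRA3 PPHLN1 alone did. DUSP21, a dual-specificity phosphatase, stood at 1.31 in MPP8 and 2.81 in PPHLN1, against 1.16 to 2.27 (-1.5 ± 0.61). The remaining genes of the naming rule were COL24A1, TKTL2, RP11-805L22.3, LINC01535, RP11-379B8.1 and FAM86B1, with differences of -2.37 to -1.43. FAM86B1 belongs to a family of near-identical copies, whose reads may be split between members. KLHL30, RP5-971N18.3 and CTD-2213F21.2 had at most 1 read per library in MPP8. CD38, an ectoenzyme of blood cells, and ZNF676 had no reads in either MPP8 library and a mean of 0.01 in PPHLN1. Each differed by -2.73 ± 2.26. With 3 counts allowed over the MPP8 group, its limit lay 3.98-fold below the PPHLN1 mean. That fold counts no error on the PPHLN1 mean, which also rests on few reads. The other groups lay at -2.40 to -0.89 for CD38, -1.80 to 0.01 for ZNF676 and -2.70 to -0.32 for KLHL30. CD38, ZNF676, KLHL30, RP5-971N18.3 and CTD-2213F21.2 passed the filter through PPHLN1 alone, so a lower MPP8 mean is partly built in.

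Gene lists linked to HUSH held few or no calls. Over all genes 0.608% were called higher and 0.891% lower and 66.9% lay below 0, so a list of this size with no call is not set apart from the rest, and nothing is read from it. Of 22 clustered protocadherins, neuronal adhesion genes of the gamma cluster in this table, 0 were higher and 0 lower, with a list median of -0.22 beside -0.05 for all genes. The difference was below 0 in 90.9% of them. PCDHGB2 stood at 4.31 in MPP8 and 4.91 in PPHLN1 (-0.60 ± 0.24), against 2.70 in sgAAVS1 to 4.69 in TASOR. PCDHGA4 stood at 4.83 in MPP8 and 5.19 in PPHLN1 (-0.36 ± 0.21), against 2.64 in TASOR2 to 4.95 in TASOR. The protocadherin spans overlap and share exons, so reads may be split between members.

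Of 71 interferon-stimulated genes 0 were higher and 0 lower, too few genes to set beside 0.608% higher and 0.891% lower over all genes. Their median was -0.14, with differences of -0.89 to 0.77. The MPP8 mean was the smaller in 57 of them, and 51 lay below the median of all genes. SAMD9, an antiviral factor, stood at 5.89 in MPP8 and 6.09 in PPHLN1, against 3.24 in sgAAVS1, and IFIH1, a sensor of double-stranded RNA, at 5.04 in MPP8 and 5.40 in PPHLN1, against 2.64. Both genes were named after their values were seen. LGALS3BP, a secreted glycoprotein, stood at 5.63 in MPP8 and 6.12 in PPHLN1 (-0.50 ± 0.15). SP110, a nuclear body protein, stood at 5.11 in MPP8 and 5.52 in PPHLN1 (-0.40 ± 0.18). Below 0 lay 80.3% of the list, against 66.9% of all genes, and the 2 medians lie less than 0.1 apart.

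The other immune and germline lists held at most 1 call each, too few genes to set beside 0.608% higher and 0.891% lower over all genes. None of 17 antigen presentation genes was called (median -0.13), with PSMB9, an immunoproteasome subunit, at 3.44 in MPP8 and 3.79 in PPHLN1 (-0.35 ± 0.33). None of 17 nucleic acid sensing genes (median -0.04), 16 retroelement restriction genes (median -0.07) or 2 GIMAP immune GTPases was called. GIMAP2 stood at 3.71 in MPP8 and 3.92 in PPHLN1 (-0.21 ± 0.31), against 1.38 in sgAAVS1 to 3.35 in TASOR2. Of 13 cytokine and chemokine genes 1 was higher, IL10, an anti-inflammatory cytokine, at 0.52 in MPP8 and -1.36 in PPHLN1 (1.88 ± 1.48), with 8 and 9 reads in MPP8 and none and 6 in PPHLN1. With a 99% interval IL10 was no longer called. IL6 stood at 3.30 in MPP8 and 3.64 in PPHLN1 (-0.33 ± 0.35). Of 31 germline genes 1 was lower, NPAP1, and the median was -0.16. TEX19, a gene of germ and pluripotent cells, stood at 3.96 in MPP8 and 4.74 in PPHLN1 (-0.78 ± 0.26), and TDRD6, a tudor-domain protein, at 2.80 in MPP8 and 3.37 in PPHLN1 (-0.56 ± 0.40). Neither passed the size limit.

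**Figure D4:**
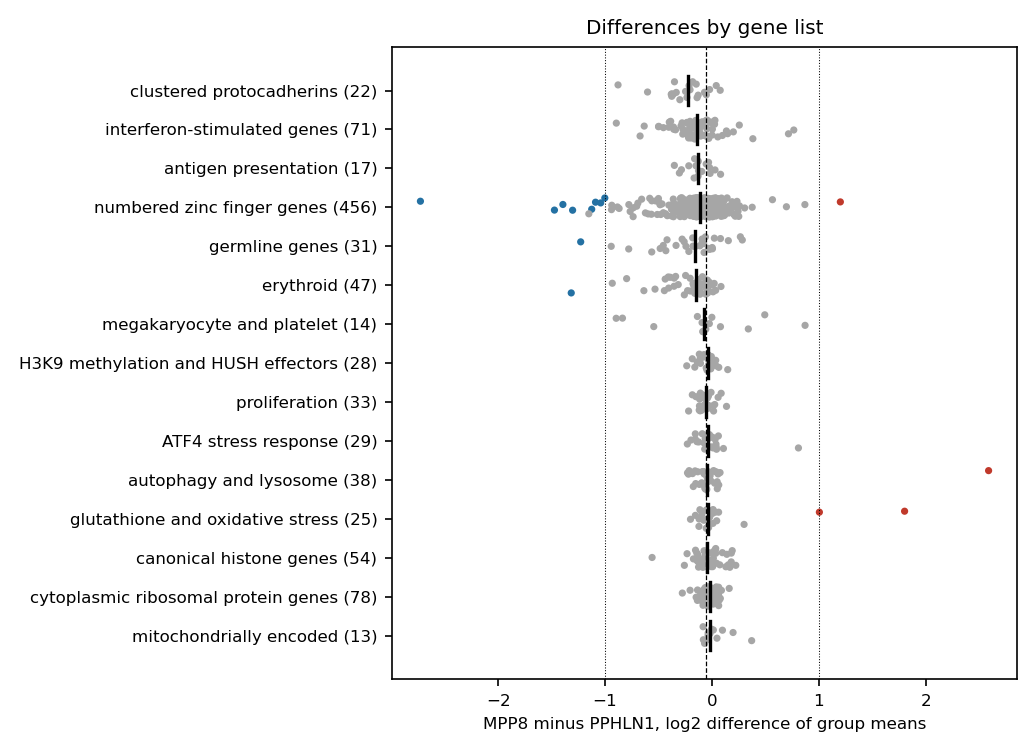
Difference of group means, MPP8 minus PPHLN1 (horizontal axis, log2), for the members of 15 gene lists; each point is a gene, black bars are list medians, the dashed line is the median of all genes (-0.05), dotted lines are the size limits, and called genes are in red (higher in MPP8) or blue (lower). Medians of the protocadherin, interferon, erythroid and germline lists lie left of the dashed line, and calls are scattered single genes except for 8 lower zinc finger genes.

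Of 456 numbered zinc finger genes, 1 was higher and 8 were lower in MPP8, with a median of -0.11 beside -0.05 for all genes. All 9 lie on chromosome 19, where most KRAB zinc finger genes are clustered: 1 was higher and 8 lower of the 230 tested there (3.48% lower), against 0 and 0 of 226 on other chromosomes. The list medians were -0.13 on chromosome 19 and -0.10 elsewhere. Of the 1113 other genes of chromosome 19, 2 were higher and 17 lower (1.53%), so the share of lower calls was above 0.891% there as well. ZNF208 stood at 0.68 in MPP8 and 2.15 in PPHLN1 (-1.47 ± 0.76), and ZNF568 at 0.50 in MPP8 and 1.80 in PPHLN1 (-1.30 ± 0.82), against -1.05 to 1.23 in the other groups. ZNF728 sat just inside the limit (-1.0 ± 0.82), and ZNF578 and ZNF676 are described above. ZNF382 (-1.39), ZNF829 (-1.12) and ZNF540 (-1.04) complete the 8. Apart from ZNF578 these genes had means of at most 2.15. With a filter of either mean above 2 the lower calls of the list were 2. These genes are similar in sequence, and reads may be shared between members. None of 36 ZSCAN, ZKSCAN and ZFP genes was called. ZSCAN18 stood at 4.82 in MPP8 and 5.29 in PPHLN1 (-0.47 ± 0.20), against 3.53 in sgAAVS1 to 4.30 in untransduced cells.

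Over all tested genes 0.891% were called lower and 0.608% higher. Among the chromosomes, chromosome 19 had the largest share of lower calls, 25 of 1343 genes (1.86%), with 3 higher (0.223%). Lower shares were also 1.72% on chromosome 4 (9 of 522) and 1.70% on chromosome X (9 of 529). For higher calls chromosome 21 stood out, with 6 of 181 genes (3.31%), SOD1 and AP000253.1 among them, followed by chromosome 12 with 11 of 877 (1.25%). Chromosome 12 carries PPHLN1, RP11-351C21.2, DRAM1, MGST1 and INHBE. These counts are small, and most of the chromosome 21 calls have low means: of the 6, SOD1 alone is well measured.

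**Figure D5:**
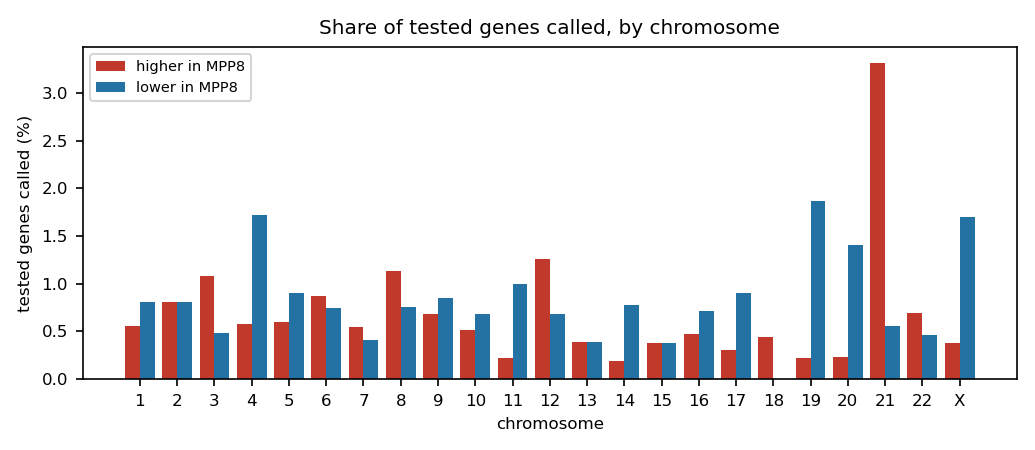
Percent of tested genes called (vertical axis) on each chromosome, red for higher in MPP8 and blue for lower in MPP8. Chromosome 21 has the tallest red bar (3.31%, 6 genes) and chromosome 19 the tallest blue bar (1.86%, 25 genes).

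Erythroid markers of K562 were present in both groups. The embryonic and fetal globin genes HBE1 and HBG2 stood at 6.82 and 7.22 in MPP8 and at 6.87 and 7.39 in PPHLN1, and GATA1, an erythroid transcription factor, at 7.39 in MPP8 and 7.45 in PPHLN1. Of 47 erythroid genes 0 were higher and 1, CA1, was lower, too few to set beside 0.608% higher and 0.891% lower over all genes. The mean was smaller in MPP8 for 42 of them (89.4%, against 66.9% of all genes), and the median was -0.15 beside -0.05. List medians of the level were 6.69 in MPP8 and 6.82 in PPHLN1. HBM, a minor alpha-like globin, stood at 2.14 in MPP8 and 3.07 in PPHLN1 (-0.93 ± 0.48), and EPB42, a red cell membrane protein, at 3.33 in MPP8 and 4.12 in PPHLN1 (-0.80 ± 0.33). The part of erythroid state in the other differences was not tested. In bulk RNA, fewer cells expressing a gene and less RNA per cell cannot be told apart.

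Markers of other cell types gave 1 call in 4 lists, too few genes to set beside 0.608% higher and 0.891% lower over all genes. Of 14 megakaryocyte and platelet genes none was called: TUBB1, a platelet tubulin, stood at 3.64 in MPP8 and 4.48 in PPHLN1 (-0.84 ± 0.29), while GP6, a platelet collagen receptor, stood at 4.26 in MPP8 and 3.39 in PPHLN1 (0.87 ± 0.31). Within that list the 2 genes thus pointed in opposite directions. None of 15 myeloid genes (median -0.11) or 12 non-blood genes (median -0.04) was called. COL1A2, a collagen chain, stood at 4.38 in MPP8 and 3.57 in PPHLN1 (0.81 ± 0.30). Of 8 lymphoid genes tested 1 was lower, CD79A, a B cell receptor component, at -0.98 in MPP8 and 0.51 in PPHLN1 (-1.49 ± 1.34), which a 99% interval no longer called.

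Housekeeping and stress lists held 0 to 2 calls each, too few to set beside 0.608% higher and 0.891% lower over all genes. None of 33 proliferation genes, 25 splicing factor genes, 78 cytoplasmic ribosomal protein genes, 54 histone genes, 29 ATF4 stress response genes or 16 heat shock genes was called, with medians between -0.06 and -0.01. Of 38 autophagy and lysosome genes, DRAM1 was the only one called (median -0.05), and its list partner NPC1 stood at 7.41 in MPP8 and 7.64 in PPHLN1. Of 25 glutathione and oxidative stress genes, MGST1 and SOD1 were higher and 0 lower (median -0.03). The medians of the autophagy and glutathione lists lay within 0.02 of that of all genes. None of 13 mitochondrially encoded genes was called, and MT-ND6, the one on the light strand, stood at 7.34 in MPP8 and 6.96 in PPHLN1 (0.37 ± 0.10). None of 10 structured RNA genes was called. The 28 genes of histone H3 lysine 9 methylation and HUSH effectors also gave no call (median -0.03, differences of -0.24 to 0.15). The LINC and antisense lists held more calls. Of 186 LINC genes 0 were higher and 4 lower (2.15% lower). Of the 359 genes of the antisense list 5 were higher and 6 lower (1.67% lower). That list is not the set of 993 genes typed as antisense above.

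At the size limit itself, ZNF728 (-1.0 ± 0.82), SOD1 (1.01 ± 0.15) and TRIM10 (1.01 ± 0.78) lay just inside, and ZCRB1 (0.99 ± 0.18), GATM (-0.99 ± 0.95) and CTC-512J12.6 (-0.99 ± 0.97) just outside. TRIM10, an erythroid-expressed RING protein, stood at 1.72 in MPP8 and 0.71 in PPHLN1.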

How the data were processed

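Total RNA of K562 dCas9-KRAB cells was depleted of ribosomal RNA and sequenced with a directional kit, per the labels' protocols. Cutadapt and Bowtie2 were used on hg38, per the submitters' processing notes; versions, counter, annotation and the use of strand are not named by the sources used here. What the authors deposited is a single table of 35805 genes with 6 value columns, without single libraries. As deposited, the untransduced column is the mean log2 value that the authors made from scaled reads. As deposited, the other 5 columns hold a score that the authors made by dividing the group mean log2 value by the untransduced one, as the values show. Each score was multiplied by the untransduced log2 value to recover the group mean, in steps of whole reads with 0 set to 0.9. In 6 called genes the untransduced value lies within 0.05 of 0, which makes the product less exact. No column was left unused.

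Group means gave no test over libraries, so a rule of size took its place: a difference of at least 1, a higher mean above 0 and a 95% Poisson counting interval without 0. Rows with repeated symbols were reduced to the highest (14 dropped), and 17 symbols turned into dates were not named. Read pairs came from products of up to 200000. The steps were tested on simulated data with Poisson counts and no spread between guides. Changes were planted only in genes with a PPHLN1 mean above 2, so recovery of changes at lower levels was not covered. Per library, reads over genes ranged from 7323858 (sgAAVS1) to 8959204 (TASOR), and errors cover counting only. The members and the 29 gene lists were chosen with earlier results of these data known. Named genes were the targeted genes, the 15 called each way with the bound farthest from 0, the 5 largest others each way, up to 4 called members of each list (or the 2 largest differences where fewer than 2 were called), genes within 250 kb of the targets, and the 3 nearest the limit on each side. Alternatives covered scaling, GC content (20 bins), filters, size limits and interval. Gene types are from GENCODE 29 and sequences from RefSeq. Python 3.11.15, numpy 2.4.6, pandas 2.3.3 and matplotlib 3.10.9 were used.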

Additional observations from a re-analysis of the deposited data

How the results depend on the processing

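The 97 higher and 142 lower calls kept their order of size under median centring (113 and 125) but not under quantile normalization (144 and 101). All 97 higher genes stayed called under both, and 125 and 101 of the lower ones. With the GC trend removed, 74 were higher and 80 lower among 13051 genes with a GC value, where the rule had called 65 and 91. Filtering on either mean above 2 gave 22 and 14, and no filter 106 and 167. A size limit of 1.5-fold gave 172 and 317, and a limit of 1.5 on the log2 scale gave 48 and 67, where the targeted gene PPHLN1, at 1.39, was no longer called. A 99% interval gave 50 and 56. Of the 113 genes named by rule, 15 lost the call at 99% and 20 at the limit of 1.5 log2, and no called one turned its direction, while uncalled differences near 0 such as FAM208A (-0.04, 0.01 median centred) did. MPHOSPH8 was called under all of them. Sets chosen after seeing the data kept 89 and 137 (without genes with no reads in 1 library and several in the other) and 68 and 120 (without pairs at least 1.5 apart). The first set left 15930 of 15944 genes. It kept genes whose other library had few reads or none. It therefore removed fewer than the 15 higher and 15 lower genes with no reads in at least 1 library.

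No paired analysis was possible because the table holds group means, and leaving out single libraries could not be run for the same reason. Depth limits genes with means of 0 to 3, whose median counting error was 0.76, against 0.13 above 3. Spread between guides enters no interval.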

Other observations

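The smallest possible gap between the 2 libraries of a group also differed between groups, counted over called and uncalled genes together. Its median was larger in MPP8 (0.19) than in PPHLN1 (0.12), while the largest gaps lay the other way. A gap of at least 1.5 on the log2 scale occurred in 0 of 7342 genes in MPP8, 9 of 7245 in PPHLN1, 4 of 6820 in TASOR, 47 of 7178 in TASOR2 and 1 of 6945 in untransduced cells, over products of 400 to 200000 reads. The largest was 1.37 in MPP8 and 3.41 in PPHLN1. Of the 9 PPHLN1 genes, 3 were not called against MPP8. IL2RB, a chain of the interleukin 2 receptor, stood at 2.70 in MPP8 and 2.43 in PPHLN1, with at most 17 reads in 1 PPHLN1 library and at least 61 in the other. ANKRD33 stood at 3.13 in MPP8 and 3.32 in PPHLN1, with a most even PPHLN1 pair of 31 and 115 reads. ITIH5, an inter-alpha-trypsin inhibitor heavy chain, stood at 4.16 in MPP8 and 4.18 in PPHLN1, with a most even PPHLN1 pair of 61 and 193. The PPHLN1 group mean alone does not show these gaps.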
